A study of Homo sapiens with 18 samples.

Results

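The expression of 9 meiosis genes was followed across 6 groups of human lymphoma cell lines. They are the cohesin subunits SMC1B, REC8 and STAG3, the chromosome axis and synapsis genes SYCP1, SYCP3 and HORMAD1, the recombination genes SPO11 and DMC1, and DAZL, an RNA-binding gene of germ cells. The 9 genes were taken by symbol from the 18417 genes measured by a probe set annotated to a single symbol, and each of the 9 had exactly 1 such probe set. Their choice was made with earlier results of these data known. Total RNA was hybridised to whole-transcript arrays, 3 arrays for each of the 6 groups and 18 in all. The samples ask how far renewed expression of PAX5, the B-lineage commitment factor, and drugs that loosen chromatin bring back B-cell expression in a Hodgkin lymphoma line. L428-PAX5 is a derivative of the Hodgkin line L428 in which mifepristone induces PAX5. L428-PAX5+MAT and L428+MAT received 0.25 nM mifepristone for 2 days and then 3 µM 5-aza-2′-deoxycytidine (5-aza-dC), an inhibitor of DNA methylation, for 3 days. Trichostatin A (TSA), an inhibitor of histone deacetylases, was present at 640 nM for the last 24 hours. L428-PAX5+M and L428+M received 0.25 nM mifepristone with a treatment time of 5 days and neither drug, so all 4 L428 groups carried mifepristone. Raji and Namalwa, lines from Burkitt lymphoma (a B-cell tumour), were untreated. Sample titles of L428-PAX5+MAT read L425-PAX5, but the cell line field reads L428-PAX5 and was followed. The medium of L428-PAX5 also held 25 mM HEPES, and neither L428-PAX5 without mifepristone nor either drug alone was analysed here. Line, PAX5 and medium cannot be told apart between L428-PAX5 and L428, and neither can 5-aza-dC and TSA. The sources do not say whether L428-PAX5 is 1 clone or whether replicates came from separate cultures. The p-values therefore rest on array-to-array spread that may be technical.

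Meiosis is the pair of divisions by which germ cells make haploid gametes. In it, cohesin complexes with meiosis-specific subunits fasten chromosomes into loops on a protein axis, the enzyme SPO11 cuts the DNA, the recombinase DMC1 finds the homologous chromosome, and the synaptonemal complex zips the homologues together. Body cells normally keep many of these genes off, with DNA methylation of CpG-rich promoters being 1 known means, and several of them, such as HORMAD1 and SYCP1, are counted among the cancer-testis genes because tumours can express them.

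Promoters were compared because 5-aza-dC acts on methylated CpG sites, although methylation itself was not measured. The RefSeq promoter table (GRCh38.p14, 300 bases each, of which 250 lie before a start) held 10 windows for 8 of the 9 genes, with 2 windows each for DAZL and STAG3, those of STAG3 overlapping. The windows were searched on both strands for CACGTG, an E-box, and for GCGGGA, an E2F-type motif. These letters belong to factors known in mouse to hold germ-line genes silent in body cells, and the motifs do not overlap each other in these windows. The 5 stretches below are the 250 bases before a start, 5′ to 3′ on the gene's strand, with GCGGGA or its reverse complement in capitals. They set 3 genes that rose with the drugs (DAZL, SYCP3 and STAG3) beside 1 that was near the low end of signal on every array (SPO11) and 1 that was bright in L428 before the drugs (SMC1B).
DAZL, chr3:16605424-16605673, minus strand: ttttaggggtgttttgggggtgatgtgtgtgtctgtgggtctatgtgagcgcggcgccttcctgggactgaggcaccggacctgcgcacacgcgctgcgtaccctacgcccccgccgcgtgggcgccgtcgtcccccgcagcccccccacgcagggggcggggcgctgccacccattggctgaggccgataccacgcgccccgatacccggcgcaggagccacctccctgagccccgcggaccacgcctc
SYCP3, chr12:101739463-101739712, minus strand: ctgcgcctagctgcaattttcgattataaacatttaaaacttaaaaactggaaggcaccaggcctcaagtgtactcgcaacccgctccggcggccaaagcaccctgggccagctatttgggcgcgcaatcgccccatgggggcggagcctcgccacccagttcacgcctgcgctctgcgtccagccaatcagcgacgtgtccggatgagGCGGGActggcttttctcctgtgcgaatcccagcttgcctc
STAG3, chr7:100177474-100177723, plus strand: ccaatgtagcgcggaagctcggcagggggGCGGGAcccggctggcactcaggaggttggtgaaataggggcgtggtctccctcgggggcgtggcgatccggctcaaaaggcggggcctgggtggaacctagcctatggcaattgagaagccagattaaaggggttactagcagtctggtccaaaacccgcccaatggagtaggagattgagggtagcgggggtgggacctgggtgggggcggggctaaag
SPO11, chr20:57329553-57329802, plus strand: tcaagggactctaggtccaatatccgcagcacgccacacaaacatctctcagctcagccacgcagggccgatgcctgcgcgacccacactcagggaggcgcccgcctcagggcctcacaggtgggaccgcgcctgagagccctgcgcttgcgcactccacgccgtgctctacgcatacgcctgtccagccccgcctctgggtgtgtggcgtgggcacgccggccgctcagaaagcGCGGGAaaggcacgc
SMC1B, chr22:45413600-45413849, minus strand: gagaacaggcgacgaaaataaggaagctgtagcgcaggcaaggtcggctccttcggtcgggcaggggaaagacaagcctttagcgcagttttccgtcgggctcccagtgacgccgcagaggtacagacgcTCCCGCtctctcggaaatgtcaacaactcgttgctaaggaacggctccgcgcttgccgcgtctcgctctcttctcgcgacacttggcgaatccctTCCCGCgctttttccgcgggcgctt

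GCGGGA was found 41 bases before the start of SYCP3, 221 before that of STAG3, 15 before that of SPO11, and 120 and 25 before that of SMC1B. It occurred in 8 of the 10 windows of these genes (80%), against 26.9% of 35116 windows of the same length. CACGTG occurred in 3 of the 10 windows (30.0%), both of STAG3 and the second of DAZL, against 7.26% of all windows. The STAG3 windows share a single CACGTG, which lies in their overlap, so the 3 windows hold 2 distinct sites. The first DAZL window and that of DMC1 held neither. The 10 windows held a median of 27.5 CpG sites, against 14 in all windows. DAZL had 33 and 29 CpG sites, STAG3 20 and 30, SYCP3 24, SPO11 26, DMC1 29, REC8 26, SMC1B 34 and SYCP1, near the median of all windows, 15. The CpG count did not order these genes by their drug response.

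The arrays bore out the labels for PAX5. Its log2 signal was between 12.67 and 12.85 on the 6 arrays of L428-PAX5, with and without the drugs, between 6.7 and 8.64 on the 6 arrays of L428, and between 10.77 and 11.31 on the 6 Burkitt arrays. The spread in L428 lay in L428+M (6.7 to 8.64, SD 1.02), against 7.08 to 7.28 in L428+MAT. The B-cell markers CD79A (5.78 to 6.53) and CD22 (5.25 to 6.25) were low on all 12 L428 and L428-PAX5 arrays, against at least 11.64 and 10.80 in the Burkitt lines. The Hodgkin marker TNFRSF8 (CD30) ran the other way in L428+M, at 9.32 to 10.22 against 7.35 to 7.85 in the Burkitt lines. Correlation between replicate arrays over all genes ran from 0.9628 (L428-PAX5+MAT replicates 2 and 3) to 0.9961, and array medians from 6.52 to 6.70.

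HORMAD1 and DAZL showed the highest rises of the 9 genes with the drugs, in both lines. HORMAD1 encodes a protein of the unsynapsed chromosome axis. It read 6.42, 5.45 and 7.41 (log2 signal of replicates 1, 2 and 3) in L428-PAX5+MAT, against 4.72, 4.11 and 4.20 in L428-PAX5+M. In L428+MAT it was 9.20, 8.29 and 8.64, against 4.22, 4.02 and 4.12 in L428+M. Every drug-treated array stood above every array without the drugs, Raji (3.96, 4.08 and 4.76) and Namalwa (3.72, 3.93 and 4.23) included, and the 2 drug-treated groups did not overlap. The rise was 4.24-fold in L428-PAX5 (2.08 ± 0.35 on the log2 scale, the error being the SE, with 3 arrays in each group, adjusted p by limma = 1.51e-04) and 24.1-fold in L428 (4.59 ± 0.35, adjusted p = 9.55e-08). It ranked 142 and 5 among 18417 rises in these comparisons. The 2 rises differed, by -2.51 ± 0.50 on the log2 scale for L428-PAX5 minus L428 (interaction term, adjusted p = 0.0023).

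DAZL binds the 3′ ends of germ-cell transcripts and promotes their translation. It read 8.31, 8.21 and 7.68 in L428-PAX5+MAT, against 5.29, 5.17 and 5.45 in L428-PAX5+M. It was 10.79, 9.63 and 9.19 in L428+MAT, against 5.29, 5.50 and 5.67 in L428+M. Raji had 5.65, 5.33 and 5.80 and Namalwa 5.19, 5.34 and 5.67, so the 4 groups without the drugs lay between 5.17 and 5.80 and no drug-treated array came near them. The rise was 6.78-fold in L428-PAX5 (2.76 ± 0.28, adjusted p = 9.23e-07) and 20.8-fold in L428 (4.38 ± 0.28, adjusted p = 1.15e-08), ranks 71 and 7. As for HORMAD1, the rise was smaller in L428-PAX5, by -1.62 ± 0.40 (interaction term, adjusted p = 0.0101). DAZL has close relatives in the DAZ genes, and which of them its probe set also reads was not tested.

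**Figure D1:**
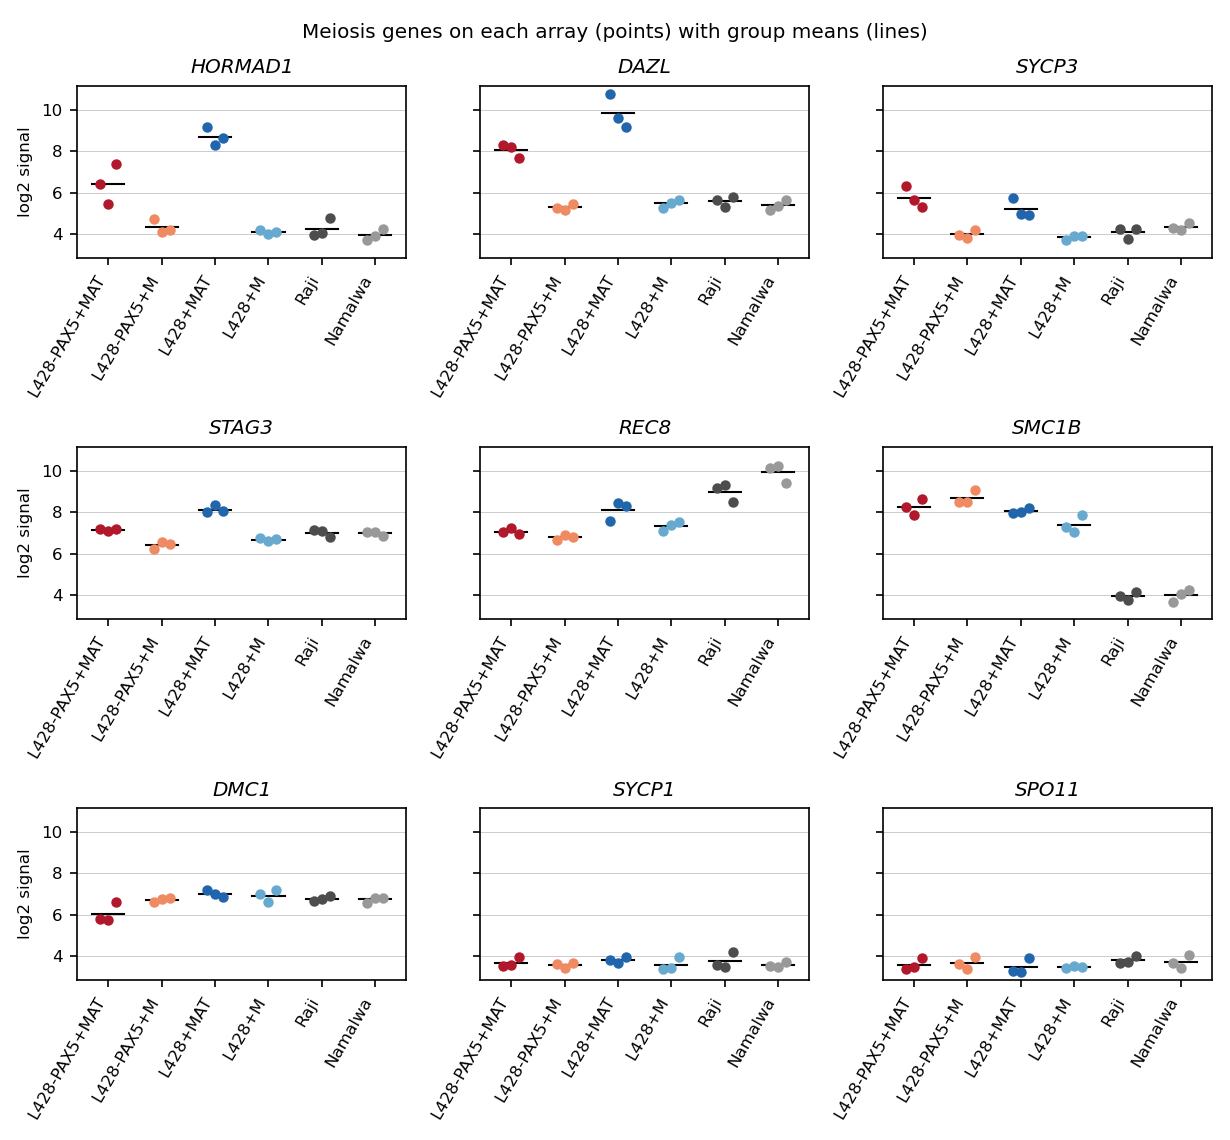
Log2 signal (vertical axis) of the 9 genes on each of the 18 arrays (points) in the 6 groups (horizontal axis), with group means as lines. HORMAD1 and DAZL stand high only on the drug-treated arrays, SMC1B is lowest in Raji and Namalwa and REC8 highest there, and SYCP1 and SPO11 stay between 3.23 and 4.21 on every array.

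Of the synapsis genes, SYCP3 rose and SYCP1 did not pass. SYCP3 forms the lateral element of the synaptonemal complex. It read 6.31, 5.63 and 5.32 in L428-PAX5+MAT, against 3.98, 3.81 and 4.22 in L428-PAX5+M. It was 5.76, 4.98 and 4.91 in L428+MAT, against 3.71, 3.93 and 3.91 in L428+M. The drug-treated and mifepristone-only arrays did not overlap in either line, and Raji (4.23, 3.78 and 4.24) and Namalwa (4.31, 4.18 and 4.56) lay below both drug-treated groups. The rise was 3.37-fold in L428-PAX5 (1.75 ± 0.24, adjusted p = 1.94e-05) and 2.58-fold in L428 (1.36 ± 0.24, adjusted p = 0.00128). Unlike HORMAD1 and DAZL, SYCP3 had a change at least as high in L428-PAX5, and the difference between lines, 0.39 ± 0.34 with a 95% interval from -0.32 to 1.10, did not pass (adjusted p = 0.515). With array weights it was 1.15 and passed (adjusted p = 0.00168).

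SYCP1 builds the transverse filaments that join the axes of paired chromosomes. It lay between 3.40 and 4.21 on all 18 arrays, and the groups overlapped throughout. Its change with the drugs was 0.11 ± 0.19 in L428-PAX5 (95% interval -0.29 to 0.52) and 0.21 ± 0.19 in L428 (-0.20 to 0.62), and neither passed. Changes of genes this dim are understated on the array's log2 scale.

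Of the 3 meiotic cohesin genes, STAG3 rose with the drugs in both lines, SMC1B was high in L428 without them, and REC8 was highest in the Burkitt lines. STAG3, the meiotic form of the STAG subunit, had a log2 signal of 7.19, 7.10 and 7.22 in L428-PAX5+MAT, against 6.22, 6.55 and 6.49 in L428-PAX5+M. It had 8.0, 8.34 and 8.05 in L428+MAT, against 6.76, 6.6 and 6.72 in L428+M. These groups did not overlap within either line. Raji (7.17, 7.10 and 6.82) and Namalwa (7.07, 7.08 and 6.85) had levels that overlapped those of L428-PAX5+MAT only through Raji. STAG3 rose 1.68-fold in L428-PAX5 (0.75 ± 0.14, adjusted p = 3.31e-04) and 2.70-fold in L428 (1.43 ± 0.14, adjusted p = 1.51e-06). The difference between the lines was -0.68 ± 0.19 (interaction term, adjusted p = 0.0215). With the replicate number as a block this difference passed too (adjusted p = 0.0106). Without the block it no longer passed when L428+M replicate 2 (-0.64) was left out, nor without L428-PAX5+M replicate 2 (-0.62) or L428+MAT replicate 2 (-0.58). A brighter probe set shared by STAG3 and its near-identical STAG3L relatives rose by less in L428 (0.53, adjusted p = 0.168) and did not show the smaller rise in L428-PAX5 (interaction 0.51, adjusted p = 0.248), so the values of STAG3 are uncertain in that respect.

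REC8 is the meiotic kleisin, the subunit that closes the cohesin ring until it is cut. The drug-treated groups had 7.05, 7.25 and 6.94 in L428-PAX5+MAT and 7.6, 8.48 and 8.32 in L428+MAT. The mifepristone-only groups had 6.68, 6.89 and 6.81 (L428-PAX5+M) and 7.11, 7.41 and 7.55 (L428+M). The Burkitt lines stood above all of these, with 9.18, 9.34 and 8.52 in Raji and 10.17, 10.26 and 9.45 in Namalwa, and the Raji and Namalwa arrays did not overlap. Within each line the drug-treated arrays were all above the others, but the changes of 0.28 ± 0.25 in L428-PAX5 (adjusted p = 0.435) and 0.78 ± 0.25 in L428 (adjusted p = 0.0853) did not pass. With the replicate number as a block, REC8 passed in L428 (0.78 ± 0.21, adjusted p = 0.0276), and it also passed without L428+MAT replicate 1 (1.04, adjusted p = 0.0195). The difference between the lines, -0.49 ± 0.35 with a 95% interval from -1.22 to 0.24, did not pass.

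SMC1B, the meiotic form of the cohesin ATPase SMC1, was high in L428 without the drugs. L428-PAX5+MAT read 8.27, 7.87 and 8.64, and L428-PAX5+M read 8.53, 8.53 and 9.09. The levels were 7.96, 8.0 and 8.21 in L428+MAT, and 7.31, 7.04 and 7.86 in L428+M, against 3.94, 3.79 and 4.16 in Raji and 3.69, 4.06 and 4.27 in Namalwa. All 12 L428 and L428-PAX5 arrays thus stood above all 6 Burkitt arrays. SMC1B was 10.7-fold higher in L428+M than in the mean of Raji and Namalwa (3.42 ± 0.20, n = 3 against 6, adjusted p = 3.62e-11) and 2.49-fold higher in L428-PAX5+M when set against L428+M (1.32 ± 0.23, adjusted p = 3.80e-04). Its drug changes, -0.45 ± 0.23 in L428-PAX5 (adjusted p = 0.138) and 0.65 ± 0.23 in L428 (adjusted p = 0.126), did not pass. With the replicate number as a block both passed, at an adjusted p of 0.0133 and 0.00521, as did the first without L428-PAX5+MAT replicate 3 (-0.65) and the second without L428+M replicate 3 (0.88). The difference between the lines, -1.11 ± 0.32, passed (interaction term, adjusted p = 0.0233). With the block this difference passed too (adjusted p = 5.84e-04). Without the block it did not pass once L428+M replicate 2 was left out (-0.93), nor without L428-PAX5+M replicate 3 (-0.92), L428+MAT replicate 3 (-1.03) or L428-PAX5+MAT replicate 2 (-0.91), nor with quantile normalization (-0.98).

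The mitotic counterparts of these subunits fell in L428-PAX5, apart from SMC1A. In L428 none of SMC1A (0.26 ± 0.15), RAD21 (0.01 ± 0.19), STAG1 (0.09 ± 0.24) and STAG2 (0.15 ± 0.29) passed with the drugs. In L428-PAX5 the drugs lowered RAD21 (-0.84 ± 0.19), STAG1 (-1.23 ± 0.24) and STAG2 (-1.62 ± 0.29), while SMC1A did not pass (-0.11 ± 0.15). STAG2 had 9.52, 8.63 and 10.42 in L428-PAX5+MAT, against 10.97, 11.07 and 11.38 in L428-PAX5+M. STAG1 and RAD21 share the order of the 3 L428-PAX5+MAT arrays seen in STAG2, replicate 3 highest and replicate 2 lowest. Of the 9 genes, HORMAD1, SMC1B, STAG3 and DMC1 share it too. DAZL, SYCP3 and REC8 were lowest in replicate 3, and SYCP1 and SPO11 in replicate 1. A wider list holds 12 measured genes, these counterparts among them. It also includes cohesin genes that are no counterpart of any of the 9 genes, such as SMC3, PDS5A, PDS5B, NIPBL and WAPL. Of the 12, 7 fell and none rose in L428-PAX5, beside 19.4% of all genes that fell. None passed in either direction in L428 (0 at an unadjusted p below 0.05), beside 4.21% of all genes that rose and 0.635% that fell.

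**Figure D2:**
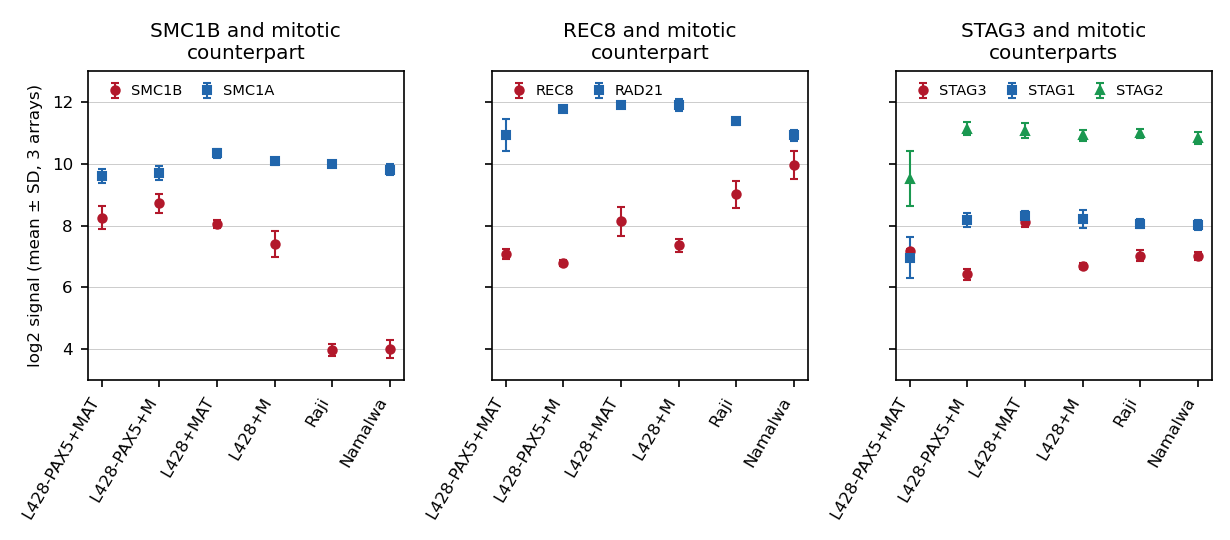
Log2 signal (mean ± SD of 3 arrays, vertical axis) of the meiotic cohesin genes SMC1B, REC8 and STAG3 and of their mitotic counterparts in the 6 groups (horizontal axis). Levels of different genes come from different probe sets and are not comparable; each gene is to be read across groups, where SMC1B is lowest in the Burkitt lines and STAG1 and STAG2 are lowest in L428-PAX5+MAT.

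Neither recombination gene rose. SPO11, whose product makes the breaks that start recombination, lay between 3.23 and 4.08 on all 18 arrays, with changes of -0.07 ± 0.20 in L428-PAX5 (95% interval -0.50 to 0.36) and -0.01 ± 0.20 in L428 (-0.44 to 0.42). DMC1, the meiosis-specific strand-exchange protein, had 5.80, 5.76 and 6.63 in L428-PAX5+MAT, against 6.62, 6.76 and 6.80 in L428-PAX5+M. It had 7.20, 6.99 and 6.84 in L428+MAT, against 6.99, 6.63 and 7.18 in L428+M, and 6.57 to 6.93 in the Burkitt lines. DMC1 fell in L428-PAX5 by 0.67 ± 0.20 on the log2 scale (adjusted p = 0.0134), though replicate 3 of L428-PAX5+MAT overlapped the group without drugs. The call was lost without L428-PAX5+MAT replicate 1 (-0.54) or 2 (-0.51) and with only the 2 groups in the fit (adjusted p = 0.0644). In L428 its change was 0.08 ± 0.20, and the difference between the lines, -0.75 ± 0.28, did not pass (adjusted p = 0.0788) but passed with the replicate number as a block (adjusted p = 0.0336) and without L428-PAX5+MAT replicate 3 (-1.03).

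**Figure D3:**
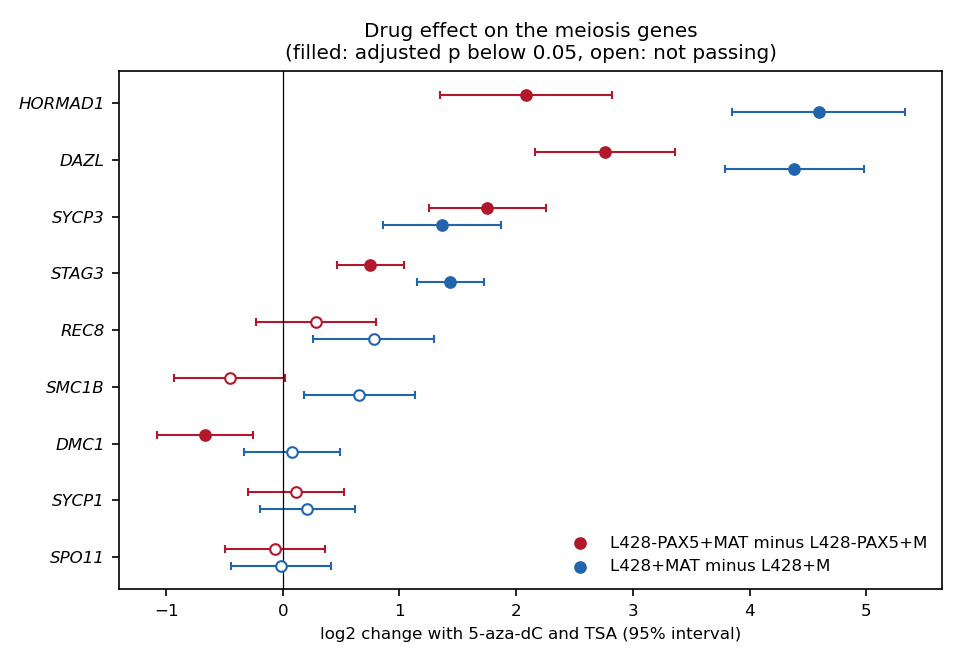
Log2 change with 5-aza-dC and TSA (horizontal axis, with 95% interval) of each gene in L428-PAX5 (red, upper) and L428 (blue, lower), 3 arrays per group. HORMAD1, DAZL, SYCP3 and STAG3 are filled on the right in both lines, and DMC1 is the filled point left of 0, in L428-PAX5.

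Counted over the 9 genes, STAG3, SYCP3, HORMAD1 and DAZL rose in both lines. In L428-PAX5 4 of 9 rose and 1 fell, against 14.2% and 19.4% of all 18417 genes, with a median change of 0.28 beside -0.04 for all genes. In L428 4 of 9 rose and none fell, against 4.21% and 0.635% of all genes, with a median of 0.78 beside -0.04. Because the 9 genes were chosen with earlier results of these data known, these shares describe them and are no test. With the replicate number as a block 6 of 9 rose in L428, the added genes being SMC1B and REC8, and 2 fell in L428-PAX5. Over all 18417 genes, 1156 rose in L428 and 4472 fell in L428-PAX5 in that fit. The block moved the count of all genes that fell in L428 to 436, against 117 without it. Arrays did not overlap, with the drug-treated group higher, for 5 genes in L428-PAX5 and 6 in L428, beside 17.7% and 11.2% of all genes. The difference between the lines passed for 4 of 9 genes (SMC1B, STAG3, HORMAD1 and DAZL), each with the lower change in L428-PAX5, beside 10.6% of all genes in that direction, and for none in the other (5.64% of all genes). Without L428+M replicate 2 that count was 2, and the block moved the counts over all genes to 3013 and 1717, against 1951 and 1039 without it.

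The comparisons of L428-PAX5 with L428 share their arrays with those of the drugs and are no separate evidence. With the drugs, 5 of 9 genes were lower in L428-PAX5+MAT than in L428+MAT, beside 17.7% of all genes, and none was higher (14.3%). They were HORMAD1 (-2.29 ± 0.35), DAZL (-1.80 ± 0.28), REC8 (-1.06 ± 0.25), STAG3 (-0.96 ± 0.14) and DMC1 (-0.95 ± 0.20). SYCP3 did not pass (0.54 ± 0.24, adjusted p = 0.0989), though it did without L428+MAT replicate 1 (0.81) or L428-PAX5+MAT replicate 3 (0.76). The brighter probe set that STAG3 shares with its relatives had the opposite sign here (0.96, adjusted p = 9.36e-04). Without the drugs, SMC1B alone passed, with the higher level in L428-PAX5+M, against L428+M (beside 9.72% of all genes higher and 6.55% lower, the lower count being 1818 with the replicate block and 1206 without).

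Between L428+M and the Burkitt lines, SMC1B was the 1 gene higher in L428+M, beside 16.7% of all genes, and REC8 and STAG3 were lower, beside 18.7%. REC8 was 4.38-fold lower in L428+M (-2.13 ± 0.21, adjusted p = 1.18e-07). STAG3 was lower by a small margin (-0.32 ± 0.12, adjusted p = 0.0426), and its call was lost without any 1 of the L428+M replicates (-0.27 to -0.36), without Namalwa replicate 1 or 2 (-0.30 each) or Raji replicate 1 or 2 (-0.29 and -0.30). HORMAD1 (0.01 ± 0.30) and DAZL (-0.01 ± 0.25) did not pass. Because the Burkitt lines were untreated, the effects of line and of mifepristone cannot be told apart here. The Burkitt lines differed in REC8 alone, lower in Raji than in Namalwa (-0.95 ± 0.25, adjusted p = 0.00876, beside 11.5% of all genes lower and 7.74% higher), a call lost without Namalwa replicate 2 (-0.80) or Raji replicate 3 (-0.70).

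Other genes of the pathway, in lists that leave out the 9 genes, moved in part with the drugs. These lists too were chosen with earlier results of these data known. Of 17 measured partners of the axis and synaptonemal complex, 7 rose and 2 fell in L428-PAX5, and 5 rose and none fell in L428. Over all genes, 14.2% rose and 19.4% fell in L428-PAX5, and 4.21% rose and 0.635% fell in L428. SYCP2, the lateral-element partner of SYCP3, rose in both (1.25 ± 0.21 in L428-PAX5 and 1.31 ± 0.21 in L428), as did MAJIN, which tethers telomeres to the nuclear envelope (1.37 ± 0.20 and 1.0 ± 0.20), FKBP6 (0.95 ± 0.18 and 1.19 ± 0.18) and IHO1, a partner of HORMAD1 in break formation (0.61 ± 0.17 and 1.21 ± 0.17). SUN1, a nuclear envelope anchor, rose in L428-PAX5 (1.35 ± 0.18). TRIP13, which removes HORMAD proteins from the axis, fell there (-0.44 ± 0.13), as did KASH5 (-0.41 ± 0.15). The count of 2 falls was 0 without L428-PAX5+M replicate 1 or 2 or L428-PAX5+MAT replicate 1, and 1 without L428-PAX5+M replicate 3.

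Of 26 measured genes of meiotic recombination, 5 rose and 2 fell in L428-PAX5, beside 14.2% and 19.4% of all genes. In L428 3 rose and none fell, beside 4.21% and 0.635% of all genes. With the replicate block 6 rose in L428, beside 1156 of all 18417 genes. Beside the 14.2% of all genes that rose in L428-PAX5, 5 of 26 is near the background. TEX11, an X-linked crossover gene, was the one that rose in both (1.37 ± 0.25 in L428-PAX5 and 3.30 ± 0.25 in L428). CNTD1 (1.34 ± 0.24) and MEI1 (0.57 ± 0.15) rose in L428. PSMC3IP (HOP2), an accessory factor of DMC1, rose in L428-PAX5 (0.85 ± 0.18), while its partner MND1 (-0.79 ± 0.27) and the mismatch-repair gene MLH3 (-1.05 ± 0.23) fell there. The 5 rises were 3 without L428-PAX5+M replicate 2. The 2 falls were 4 without L428-PAX5+MAT replicate 3 and 1 without any other 1 of the arrays compared. PRDM9, which places the breaks of SPO11, averaged 4.25 ± 0.53 in L428-PAX5+MAT, 4.17 ± 0.34 in L428-PAX5+M, 4.11 ± 0.21 in L428+MAT and 4.10 ± 0.19 in L428+M (SD, n = 3 each), and was chosen for mention after its values were seen.

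Of 15 measured genes of meiotic entry and germ-cell regulation, 6 rose and none fell in L428-PAX5, and 3 rose and 1 fell in L428, beside 14.2% of all genes that rose and 19.4% that fell in L428-PAX5 and 4.21% and 0.635% in L428. MEIOC, which holds cells in the meiotic program, rose in both (2.15 ± 0.23 in L428-PAX5 and 1.73 ± 0.23 in L428), as did BOLL, a relative of DAZL (0.60 ± 0.19 and 1.33 ± 0.19), and STRA8, the switch of meiotic entry (0.70 ± 0.17 and 0.66 ± 0.17). DDX4 (VASA), a germ-cell helicase, rose in L428-PAX5 (0.73 ± 0.20). NANOS2 fell in L428 (-0.48 ± 0.13), a call lost without any 1 of the arrays compared other than L428+MAT replicate 1. Of 15 measured germ-line genes reported in mouse as silenced by promoter methylation, a list that shares DDX4, HORMAD2 and SYCE1 with those above, 5 rose in L428-PAX5 (3 without L428-PAX5+MAT replicate 2) and 2 in L428 (4 with the replicate block), and none fell, beside the same shares of all genes. MAEL, a piRNA pathway gene, led both (3.20 ± 0.24 and 3.71 ± 0.24), with TDRKH next in L428-PAX5 (1.35 ± 0.17) and TAF7L in L428 (1.11 ± 0.15).

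Genes of the stage after meiosis were also measured. Of 20 measured spermatid genes, 1 rose and 1 fell in L428-PAX5 and 2 rose in L428, beside 14.2% of all genes that rose and 19.4% that fell in L428-PAX5 and 4.21% that rose in L428. ACR, the acrosin protease gene, rose in both (1.38 ± 0.19 in L428-PAX5 and 1.38 ± 0.19 in L428), ZPBP2 rose in L428 (0.96 ± 0.27) and TSSK6 fell in L428-PAX5 (-0.61 ± 0.23). Leaving out replicate 1 or 2 of L428+M, or replicate 1 or 3 of L428+MAT, left 1 rise in L428, and the fall was lost without any 1 of the L428-PAX5+M replicates or without L428-PAX5+MAT replicate 3 and joined by another with the replicate block. The protamine gene PRM1, whose protein packs sperm DNA, had group means between 5.41 and 5.84 and was also chosen for mention after its values were seen. The median changes in L428-PAX5 and L428 were 0.19 and 0.19 for axis and synapsis partners, 0.09 and 0.15 for recombination, 0.21 and -0.06 for entry and regulation, 0.25 and 0.30 for the methylation list, and 0.05 and -0.10 for spermatid genes, beside -0.04 in both over all genes.

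**Figure D4:**
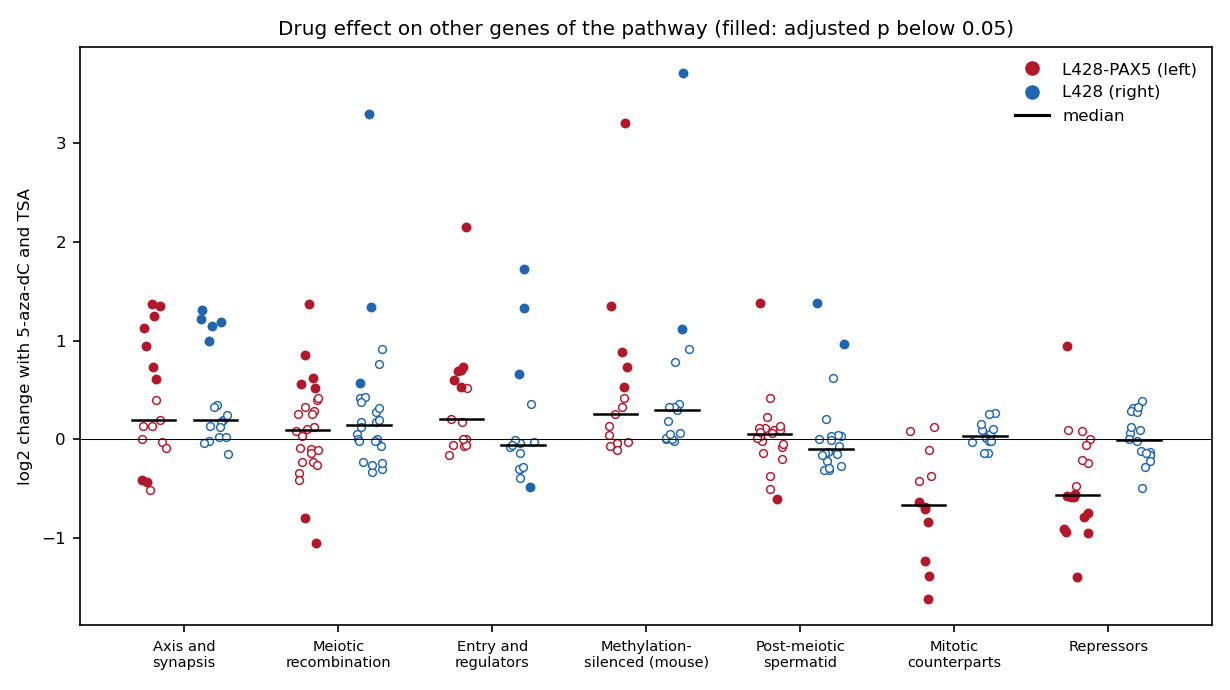
Log2 change with 5-aza-dC and TSA (vertical axis) of each measured gene of 7 lists that leave out the 9 genes (horizontal axis), in L428-PAX5 (red, left) and L428 (blue, right), with medians as lines. The highest points are MAEL in both lines and TEX11 in L428. The list labelled mitotic counterparts, which also holds other cohesin genes, and the repressors lie lower in L428-PAX5, with medians of -0.66 and -0.56.

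By Pearson correlation over the 18 arrays, among 7420 other genes whose group means span at least 1 on the log2 scale, HORMAD1 was most like TEX11 (r = 0.978), IL13RA2 (0.970) and GABRA5 (0.969). DAZL was most like SEPTIN10 (0.985), LRRC49 (0.983) and GCNA (0.981). SYCP3 was most like KLHL13 (0.942), PLK2 (0.929) and TDRD9 (0.927), and STAG3 most like GCNA (0.892), SSX5 (0.886) and SAMHD1 (0.873). DMC1 was most like STAG1 (0.911), CEP57 (0.898) and EPS15 (0.890). Among the 9 genes, HORMAD1 and DAZL were the pair most alike (0.95), followed by STAG3 and DAZL (0.85) and by SYCP3 and DAZL (0.83). These correlations describe 18 arrays that share 6 groups, and a gene that is high in the drug-treated groups and low elsewhere scores high whatever it does.

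Markers of other cell types were read beside these genes, since in bulk RNA fewer cells expressing a gene and less of its RNA per cell cannot be told apart. None of 12 T and NK cell markers passed with the drugs in either line. Over all genes, 14.2% rose and 19.4% fell in L428-PAX5, and 4.21% rose and 0.635% fell in L428. The mean log2 signal of the T and NK markers per array was 5.69 to 5.78 in L428-PAX5+MAT, 5.67 to 5.89 in L428-PAX5+M, 5.77 to 5.99 in L428+MAT and 5.79 to 5.87 in L428+M. Of 8 myeloid markers, 2 rose in L428-PAX5, CSF1R (0.71 ± 0.18) and CD14 (0.58 ± 0.16), and none passed in L428, beside 14.2% and 4.21% of all genes that rose. Their mean was 6.44 to 6.72 in L428-PAX5+MAT, 6.26 to 6.35 in L428-PAX5+M, 6.09 to 6.19 in L428+MAT and 5.95 to 6.06 in L428+M. Of 11 fibroblast and epithelial markers, 5 rose in L428-PAX5 and 2 in L428, beside 14.2% and 4.21% of all genes. KRT8 rose in both (1.65 ± 0.22 and 1.56 ± 0.22), with KRT18 (1.05 ± 0.36) and COL1A1 (0.71 ± 0.17) next in L428-PAX5 and CDH1 (1.38 ± 0.18) in L428. Their mean was 6.42 to 6.55 in L428-PAX5+MAT, 6.02 to 6.20 in L428-PAX5+M, 6.36 to 6.44 in L428+MAT and 6.05 to 6.16 in L428+M. None of 7 B-cell markers, PAX5 among them, passed with the drugs in either line, beside the same shares of all genes. Of 7 Hodgkin cell markers, 4 fell and 1 rose in L428-PAX5, beside 19.4% and 14.2% of all genes, and none passed in L428 (1 at an unadjusted p below 0.05). The falls were in CCL17 (-1.78 ± 0.17), MSC (-1.45 ± 0.24), IL13RA1 (-1.41 ± 0.21) and TNFRSF8 (-1.23 ± 0.21). The difference between the lines passed for each of these 4, with the lower change in L428-PAX5, beside 10.6% of all genes in that direction. HORMAD1, DAZL, STAG3 and SMC1B had the same direction, and whether the 2 sets are related was not tested. The rise was in ID2, with a mean of 11.23 in L428-PAX5+MAT against 10.3 in L428-PAX5+M. Its difference between the lines did not pass. The mean of the Hodgkin markers was 9.26 to 9.65 in L428-PAX5+MAT, 10.05 to 10.21 in L428-PAX5+M, 10.28 to 10.45 in L428+MAT and 10.1 to 10.43 in L428+M. The part of these marker genes in the results was not tested.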

How the data were processed

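Total RNA of 18 samples was labelled with biotin and hybridised to whole-transcript arrays. The authors deposited 1 log2 value for each of 33297 probe sets and array, from 2.24 to 14.64. RMA and Partek are the tools named in the submitters' processing notes, and their versions are not stated there. In the platform annotation 19460 carry 1 symbol, 1754 several, and 12083 are not listed. Only those with 1 symbol were used, the brightest on average per gene, with no filter on low values and no detection calls. RMA's background correction compresses dim signal, which understates changes of dim genes. The number of arrays limits the precision.

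Changes are differences of group means from lmFit and eBayes without a variance trend (limma 3.58.1 under R 4.3.3), fitted to all 18 arrays with 1 mean per group. Degrees of freedom were 12 residual plus 6.1 from the prior. P-values are two-sided, Benjamini-Hochberg adjustment covered 18417 genes, and the threshold was an adjusted p of 0.05. The fit was tested on simulated data. Replicate numbers come from the titles. Among the 4 L428 groups all 18 pairs of same-numbered arrays deviated together from their group means (r from 0.273 to 0.655 over genes), so the numbers pair these samples and a fit with the number as a block was added. The 3 pairs of Raji and Namalwa did so too (0.372, 0.325 and 0.541), and there the block changed no call among the 9 genes. Between L428 groups and Burkitt lines the pairs of replicate 3 also deviated together (r from 0.394 to 0.51). Some pairs of replicates 1 and 2 were under 0.1 (lowest -0.014), so not all numbers pair those samples. The block fit nevertheless gave same-numbered arrays of all 6 groups 1 common replicate effect.

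Alternatives were only the groups compared, the block, other probe set rules, 2 scalings, a dim-gene filter, a variance trend, array weights and leaving out each array. Named genes are the 9 genes, 4 mitotic counterparts, label checks, up to 3 rises and 3 falls per list and drug comparison, and for each of the 9 genes that passed there the 3 genes with the most similar profile. PRDM9 and PRM1 were named outside this rule. Members and lists were chosen with earlier results of these data known. Python 3.11.15, pandas 2.3.3, numpy 2.4.6 and matplotlib 3.10.9 made tables and plots.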

Additional observations from a re-analysis of the deposited data

Results flagged for a closer look

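For 4 of the 9 genes the drug effect differed between the lines by the interaction term, each with the lower change in L428-PAX5, and the values are the drug change in L428-PAX5 minus that in L428 on the log2 scale. HORMAD1 differed by -2.51 (2.08 in L428-PAX5 and 4.59 in L428), and DAZL by -1.62 (2.76 and 4.38). STAG3 differed by -0.68 (0.75 and 1.43), and the probe set it shares with its relatives gave 0.51. SMC1B differed by -1.11 (-0.45 and 0.65), with neither drug change passing on its own in the main fit. With the replicate number as a block both passed, in opposite directions (limma adjusted p = 0.0133 in L428-PAX5 and 0.00521 in L428). Before the drugs SMC1B already differed between L428-PAX5+M and L428+M, by 1.32 with the higher level in L428-PAX5+M. The part of line, PAX5 and medium in these differences cannot be told apart.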

How the results depend on the processing

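The rises of HORMAD1, DAZL and SYCP3 in both lines, and of STAG3 in L428-PAX5, kept their direction and passed under every alternative that tested them. Counted as value and alternative, 125 of 132 kept their call for the drugs in L428, 126 of 132 in L428-PAX5, 172 of 186 for the interaction, 131 of 132 for the lines without drugs, 127 of 132 with them, 151 of 159 for L428 against the Burkitt lines and 130 of 132 for Raji against Namalwa. STAG3 with probe sets of several symbols had the opposite sign in the interaction (0.513) and between the lines with drugs (0.963, making 1 of the 9 genes higher), and did not pass in L428 (0.533). With only the groups compared, genes lower in L428 numbered 38, none of the 9 genes was lower in L428-PAX5 (0), and REC8 was lower between the lines without drugs (1 gene). With replicate number fitted as a block, genes lower in L428 numbered 436, 2 of the 9 genes were lower in L428-PAX5 (DMC1 and SMC1B), all genes in the interaction numbered 1717 higher and 3013 lower, and genes lower between the lines without drugs 1818. The block changed SMC1B and REC8 in L428, SMC1B in L428-PAX5 and DMC1 in the interaction. It also changed SPO11 between L428 and the Burkitt lines (-0.294, adjusted p = 0.0462), where replicate 3 paired the samples and replicates 1 and 2 did not. No other call among the 9 genes changed with the block. Array weights, whose estimation stopped short of its tolerance and gave 1 array a weight of 15.2, called 1569 genes higher and 982 lower in L428, 4392 higher in L428-PAX5 (with 2 of the 9 lower), 2682 and 3283 in the interaction (1 of the 9 higher, SYCP3 at 1.15), 5732 and 5444 between the lines with drugs (2 of the 9 higher, SYCP3 and SMC1B), and 2529 and 3218 between Raji and Namalwa. Array weights also called SMC1B (0.766) and REC8 (1.067) higher in L428, and REC8 (-0.815) and DMC1 (-1.068) lower in the interaction. With the longer motif GGCGGGA the share of windows was 30.0% in place of 80%, against 15.4% of all windows in place of 26.9%. A filter on dim genes removed SYCP1, SYCP3 and SPO11. Where no other cause is shown by construction, the cause was not tested.

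Leaving out 1 array at a time, the 9 genes gave 4 to 5 higher in L428, 4 to 4 higher and 0 to 2 lower in L428-PAX5, 2 to 5 lower in the interaction, 1 to 1 higher between the lines without drugs, 0 to 1 higher and 5 to 5 lower with them, 1 to 1 higher and 1 to 2 lower against the Burkitt lines, and 0 to 1 lower between Raji and Namalwa. All genes gave 554 to 694 higher and 43 to 167 lower in L428, 2072 to 2778 and 2811 to 3573 in L428-PAX5, and 748 to 1510 and 1416 to 2446 in the interaction. With 3 arrays per group and no detection calls, small changes of dim genes could not be resolved.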

Other observations

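MEIOC, a partner of the meiotic RNA helicase machinery, was high in 1 Burkitt line without any drug. Its log2 signal averaged 6.27 ± 0.54 in L428-PAX5+MAT, 4.12 ± 0.14 in L428-PAX5+M, 5.86 ± 0.33 in L428+MAT, 4.13 ± 0.15 in L428+M, 4.29 ± 0.36 in Raji and 7.53 ± 0.03 in Namalwa (SD, n = 3 each). MEIOC was 9.44-fold lower in Raji than in Namalwa (-3.24 ± 0.23, limma adjusted p = 2.12e-09). It was the highest of the 6 groups in untreated Namalwa, above both drug-treated groups.

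Repressors of germ-line genes were a further list read with the drugs. Of 18 measured, 10 fell and 1 rose in L428-PAX5, beside 19.4% and 14.2% of all genes. None passed in L428 (4 at an unadjusted p below 0.05), beside 0.635% of all genes that fell and 4.21% that rose. PCGF6, a subunit of the variant Polycomb complex that binds germ-line promoters, fell by 1.39 ± 0.24, DAXX by 0.95 ± 0.15 and ATRX by 0.94 ± 0.32 on the log2 scale, and the de novo methyltransferase DNMT3B rose (0.94 ± 0.21). The difference between the lines passed for PCGF6 (-1.17, adjusted p = 0.0222) and DAXX (-0.83, adjusted p = 0.00965) and did not for DNMT3B (0.66, adjusted p = 0.146). That of ATRX, whose L428-PAX5+MAT arrays spread from 6.73 to 8.53, is not given here. Whether these falls bear on the germ-line genes was not tested.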
